A study of Mus musculus with 7 samples.

Results

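Acetylcholine receptors and the enzyme that breaks down acetylcholine were followed through the hippocampal RNA-seq libraries by 10 genes. These are the nicotinic subunit genes Chrna2, Chrna4, Chrna5, Chrna7 and Chrnb2, the muscarinic receptor genes Chrm1, Chrm2, Chrm3 and Chrm4, and the acetylcholinesterase gene Ache. They were chosen by symbol, and each was found as 1 of the 55416 Ensembl gene identifiers in all 7 libraries. All mice were males of the outbred CD1 stock, matched for age, with no genetic alteration named in the labels. Control mice were left untreated and gave 3 libraries (replicates 1 to 3). DMSO-treated mice received the vehicle by intraperitoneal injection on the same schedule as ONX-0914-treated mice and gave 2 libraries (replicates 2 and 3). The compound ONX-0914 blocks the immune β5i subunit of non-constitutive proteasomes and was given intraperitoneally for 2 months, with 2 injections of 10 mg/kg each week, and these mice gave 2 libraries (replicates 1 and 2). The age is not given, and neither the labels nor the methods say whether a library came from 1 mouse, so the statistics measure the spread between these libraries, which may in part be technical.

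Acetylcholine reaches the hippocampus mainly in axons from the medial septum and the diagonal band. It opens nicotinic receptors, which are cation channels of 5 subunits, and activates muscarinic receptors, which act through G proteins. The receptors M1 and M3 couple to Gq and phospholipase C, and M2 and M4 couple to Gi and Go, while acetylcholinesterase ends the signal by hydrolysing the transmitter. In the hippocampus, M1 is known from pyramidal and granule neurons, and the α2 subunit is known as a mark of interneurons of stratum oriens (OLM cells). The α4 and β2 subunits form the main high-affinity nicotinic receptor of the brain, which is abundant in the thalamus, and α7 forms channels of its own.

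The libraries held between 2842675 and 13782270 reads on genes, the largest total being that of ONX-0914 replicate 2. In ONX-0914 replicate 2, 3.71% of these reads fell on mitochondrially encoded genes, beside 0.82% to 1.59% elsewhere, and the RNA integrity number was not less than 8 in all. The ONX-0914 libraries stood apart from each other. A chi-square statistic per degree of freedom was taken for each pair of libraries over the genes above a minimum summed count in that pair. The set of genes thus differs between pairs. The statistic is near 1 for repeated sampling of the same library. It was 76.9 for the ONX-0914 pair and 2.5 to 3.2 for the pairs within the control and DMSO groups. It was 18.4 to 22.9 for ONX-0914 replicate 1 and 47.7 to 59.9 for replicate 2 against the 5 other libraries. The statistic grows with depth, so the values with the deeper replicate 2 are not on one scale with the others. Levels below are therefore given for both ONX-0914 libraries. For the receptor genes named above and Ache, the fits against control are given with and without each of these libraries. For other cholinergic genes, a Log2FC is given over all libraries only.

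**Figure D1:**
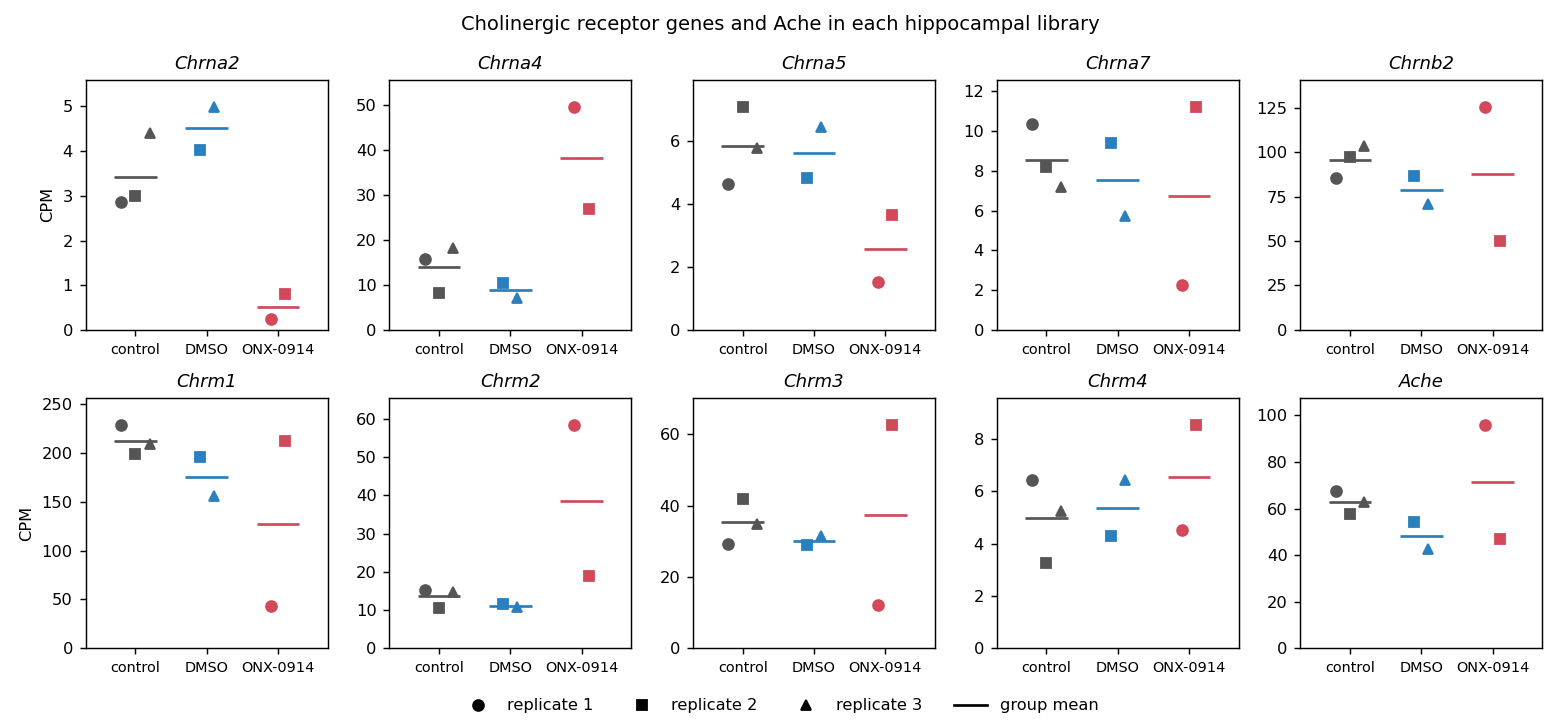
Level of each of the 10 genes in CPM (counts scaled to library size, vertical axis from 0, one scale per gene) in control, DMSO and ONX-0914 libraries. Each point is a library, with its replicate number given by the symbol, and the line is the group mean. Chrna2 and Chrna5 lie below, and Chrna4 and Chrm2 above, all other libraries in both ONX-0914 libraries, and the ONX-0914 libraries differ more than 2-fold from each other for all genes except Chrna4 and Chrm4 (for Chrna2 on 1 and 12 counts).

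What separates α from β subunits can be read from the coding sequence. An α subunit carries a pair of adjacent cysteines in the loop that closes over the acetylcholine site, and a β subunit lacks it. The stretches below show this pair, with its codons in capitals, for the 4 α subunits, and the aligned stretch of Chrnb2 without such codons. They are written 5′ to 3′ on the coding strand and come from GENCODE M21 transcripts.
Chrna2: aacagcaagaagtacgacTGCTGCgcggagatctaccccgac
Chrna4: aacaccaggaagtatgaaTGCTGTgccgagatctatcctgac
Chrna5: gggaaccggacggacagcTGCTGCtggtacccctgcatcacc
Chrna7: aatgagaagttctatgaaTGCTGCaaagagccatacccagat
Chrnb2: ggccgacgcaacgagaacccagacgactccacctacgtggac
The pair lies at codons 224 and 225 of Chrna2 (exon 6 of 7), 227 and 228 of Chrna4 (exon 5 of 6), 205 and 206 of Chrna5 (exon 5 of 6) and 212 and 213 of Chrna7 (exon 7 of 10), counted from the start codon. Although it carries the pair, α5 is known as an accessory subunit that does not form the binding site. In Ache, the codon of the serine that attacks acetylcholine is given in capitals (codon 234, exon 2 of 5).
Ache: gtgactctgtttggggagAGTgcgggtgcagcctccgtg
The counts were made on another build (GRCm39) than this annotation, so no coordinates are given.

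In untreated hippocampus, Chrm1 was the most abundant of the 10 genes once CPM were divided by the combined length of a gene's annotated exons. This length was 1440 bases for Chrm4 and 3126 to 8380 bases for the others. The place of Chrm4 in the order depends on it, and the annotation used for counting may differ. Its level was 32.7 ± 2.30 CPM per kb (SD, n = 3). It was followed by Ache with 13.6 ± 1.11 and Chrnb2 with 11.4 ± 1.09 CPM per kb, whose ranges met almost without a gap (12.4 to 14.6 and 10.2 to 12.4 CPM per kb). Chrm3 had 5.66 ± 1.02 CPM per kb, apart from the genes above and below it. In the next 5 genes the ranges of neighbours overlapped, while those of the first and the last were just apart (lowest Chrm4 library 2.272 and highest Chrna5 library 2.268 CPM per kb): Chrm4 (3.45 ± 1.10), Chrna4 (2.79 ± 1.04), Chrm2 (2.25 ± 0.428), Chrna7 (1.90 ± 0.360) and Chrna5 (1.87 ± 0.393 CPM per kb). Chrna2 was the lowest, with 0.903 ± 0.227 CPM per kb, and its highest control library (1.16) lay below the lowest one of Chrna5 (1.48).

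This order was different in each ONX-0914 library. In replicate 1, Ache was highest with 20.7 CPM per kb, followed by Chrnb2 with 14.99, Chrna4 with 9.87 and Chrm2 with 9.65, and Chrm1 came only after these with 6.71 CPM per kb. In replicate 2, Chrm1 was again highest with 32.6 CPM per kb, and Chrm3, with 10.0 CPM per kb, was level with Ache (10.2). Chrna2 was the lowest of the 10 genes in both, with 0.0665 and 0.209 CPM per kb.

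Both ONX-0914 libraries held less Chrna2 than any of the 5 others. It was detected with 8, 11 and 16 counts in control replicates 1 to 3, with 15 and 14 in DMSO replicates 2 and 3, and with 1 and 12 in ONX-0914 replicates 1 and 2. In the same order, these correspond to 2.85, 2.999 and 4.41 CPM, to 4.02 and 4.998 CPM, and to 0.252 and 0.793 CPM. Relative to the control mean, ONX-0914 replicate 1 held 0.0736 times the level (95% exact Poisson interval of its count 0.00186 to 0.410) and replicate 2 held 0.232 times (0.120 to 0.405). The intervals cover counting error only, and the libraries with ONX-0914 differed from each other by less than it (ratio of replicate 1 to replicate 2 of 0.317, interval 0.00743 to 2.15). The Log2FC against control was −2.36 ± 0.537 (standard error), with an FDR of 0.108 in edgeR's quasi-likelihood test, and against DMSO −2.73 (standard error 0.566, FDR = 0.130, edgeR). Fewer cells that express a gene and less RNA per cell cannot be told apart in bulk tissue, here and for all genes below. Reads of the 6 genes listed as markers of somatostatin and OLM interneurons, where α2 is known to be expressed, summed to 301 and 274 CPM in ONX-0914 replicates 1 and 2, to 195 to 210 CPM in control and to 154 and 180 CPM in DMSO libraries. Of the 6 genes, 3 were above and 1 below the 5 other libraries in replicate 1, and 4 were above and 1 below in replicate 2. Sst, the first of them, had 22.7 and 111 CPM in ONX-0914 replicates 1 and 2, 25.1 to 31.9 CPM in control and 26.8 and 25.7 CPM in DMSO libraries. Reln had 40.3 and 45.2 CPM with ONX-0914, 36.6 to 43.9 CPM in control and 34.9 and 19.3 CPM in DMSO libraries. Their part in the level of Chrna2 was not tested.

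Chrna4, the α partner of β2, was most abundant in the ONX-0914 libraries, both of which exceeded all others. Its level was 15.7, 8.18 and 18.2 CPM in control replicates 1 to 3, 10.5 and 7.14 CPM in DMSO replicates 2 and 3, and 49.6 and 26.8 CPM in ONX-0914 replicates 1 and 2. The highest control library thus lay below the lower ONX-0914 library, and replicate 1 exceeded replicate 2 by a factor of 1.85 (interval 1.55 to 2.20). The Log2FC was 1.43 against control (standard error 0.381, FDR = 0.138, edgeR) and 2.08 against DMSO (standard error 0.452, FDR = 0.143, edgeR).

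Chrna5 was lower in both ONX-0914 libraries, again with no overlap. It reached 4.63, 7.09 and 5.78 CPM in control, 4.83 and 6.43 CPM after DMSO and 1.51 and 3.63 CPM in ONX-0914 replicates 1 and 2, on 6 to 55 counts per library. The Log2FC was −1.02 against control (standard error 0.420, FDR = 0.247, edgeR) and −0.94 against DMSO (FDR = 0.376, edgeR).

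For Chrna7 and Chrnb2, the ONX-0914 libraries lay on opposite sides of the other 5. Chrna7 had 10.3, 8.18 and 7.16 CPM in control, 9.39 and 5.71 CPM after DMSO and 2.27 and 11.2 CPM in ONX-0914 replicates 1 and 2. Chrnb2 was in the reverse order, with 85.6, 97.1 and 103.5 CPM in control, 86.7 and 71.0 CPM after DMSO and 125.6 and 50.0 CPM in ONX-0914 replicates 1 and 2. Their group means hid this, with a Log2FC against control of −0.18 for Chrna7 (FDR = 0.878, edgeR) and −0.13 for Chrnb2 (FDR = 0.853, edgeR). Exons of Chrnb2 overlap those of Adar, on the opposite strand, over 16.3% of their length, and the strand setting of the counting is not given in the sources used here. Adar had 39.0 to 61.1 CPM in the control and DMSO libraries and 59.7 and 103 CPM in ONX-0914 replicates 1 and 2.

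Chrm1, the gene of the M1 receptor, was 4.86 times as high in ONX-0914 replicate 2 as in replicate 1. It reached 228, 199 and 209 CPM in control, 195 and 156 CPM after DMSO and 43.5 and 212 CPM in ONX-0914 replicates 1 and 2. Replicate 2 was thus within the control range, while replicate 1, with 173 counts, held 0.205 times the control mean (interval 0.176 to 0.238). Chrm3 also differed in this direction, from 29.2, 41.99 and 35.0 CPM in control and 29.0 and 31.4 CPM in DMSO to 12.1 CPM in replicate 1 and 62.6 CPM in replicate 2, which lay on opposite sides of all other libraries. The Log2FC against control was −0.72 for Chrm1 (standard error 0.521, FDR = 0.469, edgeR) and 0.12 for Chrm3 (FDR = 0.921, edgeR), the latter turning to −0.17 with limma voom.

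Chrm2, the gene of the M2 receptor, exceeded all other libraries in both ONX-0914 libraries, but mostly in replicate 1. Its level was 15.3, 10.6 and 14.9 CPM in control, 11.5 and 10.7 CPM after DMSO and 58.4 and 18.8 CPM in ONX-0914 replicates 1 and 2. Replicate 1 thus held 4.29 times the control mean (interval 3.76 to 4.88) and replicate 2 held 1.38 times (1.23 to 1.55). The Log2FC was 1.47 against control (standard error 0.438, FDR = 0.160, edgeR) and 1.76 against DMSO (standard error 0.507, FDR = 0.215, edgeR). For Chrm4, the other receptor of the Gi and Go class, 6.42, 3.27 and 5.23 CPM in control and 4.29 and 6.43 CPM in DMSO stood against 4.53 and 8.53 CPM in ONX-0914 replicates 1 and 2, of which the first lay among the others. Its Log2FC against control was 0.49 (FDR = 0.530, edgeR).

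Ache had 67.7, 57.5 and 63.1 CPM in control, 54.2 and 42.5 CPM after DMSO and 95.9 and 47.1 CPM in ONX-0914 replicates 1 and 2. Replicate 1 was above all other libraries, while replicate 2 lay between the DMSO libraries. The Log2FC was 0.18 against control (FDR = 0.760, edgeR) and 0.55 against DMSO (FDR = 0.429, edgeR).

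**Figure D2:**
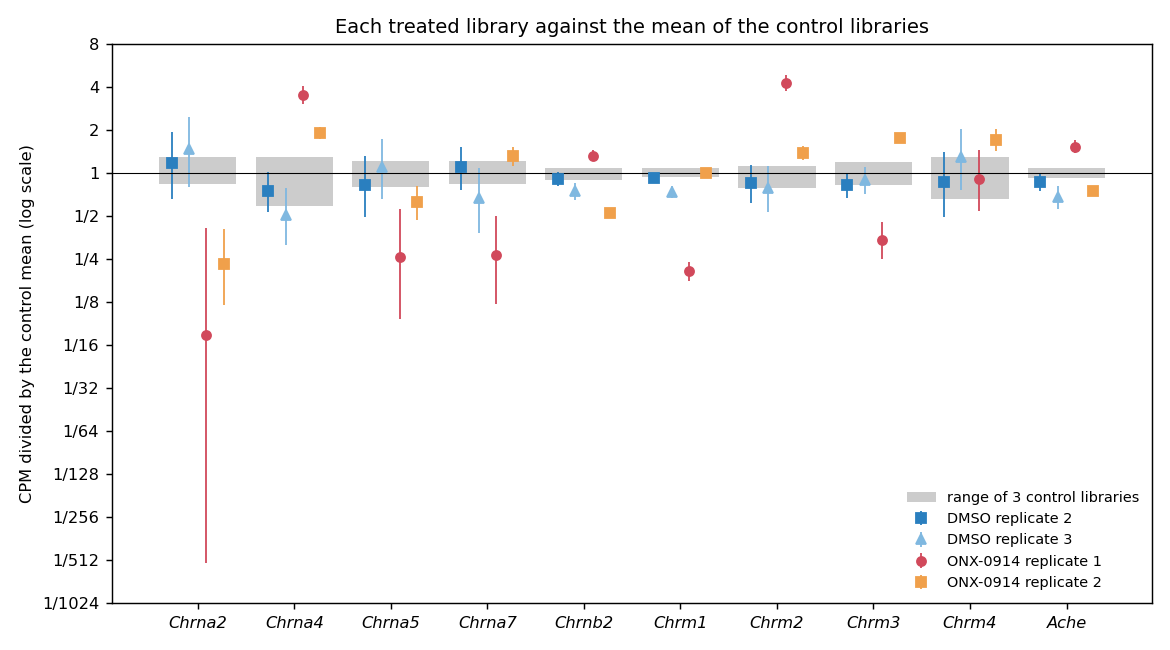
CPM of each gene in the DMSO and ONX-0914 libraries divided by the mean of the control libraries (log scale). Bars are 95% exact Poisson intervals of the library's own count, and grey boxes span the 3 control libraries. ONX-0914 replicate 1 ranges from 0.0736 times the control mean (Chrna2) to 4.29 times (Chrm2), and replicate 2 from 0.232 times (Chrna2) to 1.91 times (Chrna4).

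The make-up of each receptor family was next compared within libraries, as shares of the family's reads, which do not depend on the scaling between libraries. Among the muscarinic reads, Chrm1 took 78.0% to 81.7% in control and 81.3% and 76.2% in DMSO libraries. In ONX-0914 replicate 1 it took 36.7% (95% Wilson interval 32.5% to 41.2%), and Chrm2 took 49.3% (44.8% to 53.8%), where Chrm2 had 4.18% to 5.63% in control. In ONX-0914 replicate 2, Chrm1 took 70.2% (68.8% to 71.5%), Chrm3 20.7% (19.6% to 21.9%) and Chrm2 6.25%. Chrm2 thus had more reads than Chrm1 in 1 of the 2 ONX-0914 libraries, while in the other Chrm1 remained first, with a share below and a share of Chrm3 above those of all control libraries.

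Among the nicotinic reads, the share of Chrna4 was alike in the ONX-0914 libraries, with 27.7% (24.5% to 31.1%) in replicate 1 and 29.0% (26.7% to 31.4%) in replicate 2. It was 6.62% to 13.2% in control and 9.07% and 7.49% in DMSO libraries, so the groups did not overlap. Chrna2 took 0.140% and 0.857% with ONX-0914, 2.40% to 3.17% in control and 3.49% and 5.24% with DMSO. The share of Chrnb2 was 71.9% to 78.6% in control, 75.1% and 74.5% with DMSO, and 70.1% and 54.1% in ONX-0914 replicates 1 and 2. Chrna7 took 1.26% in replicate 1 and 12.1% in replicate 2, below and above the 5.15% to 8.68% of the control libraries.

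**Figure D3:**
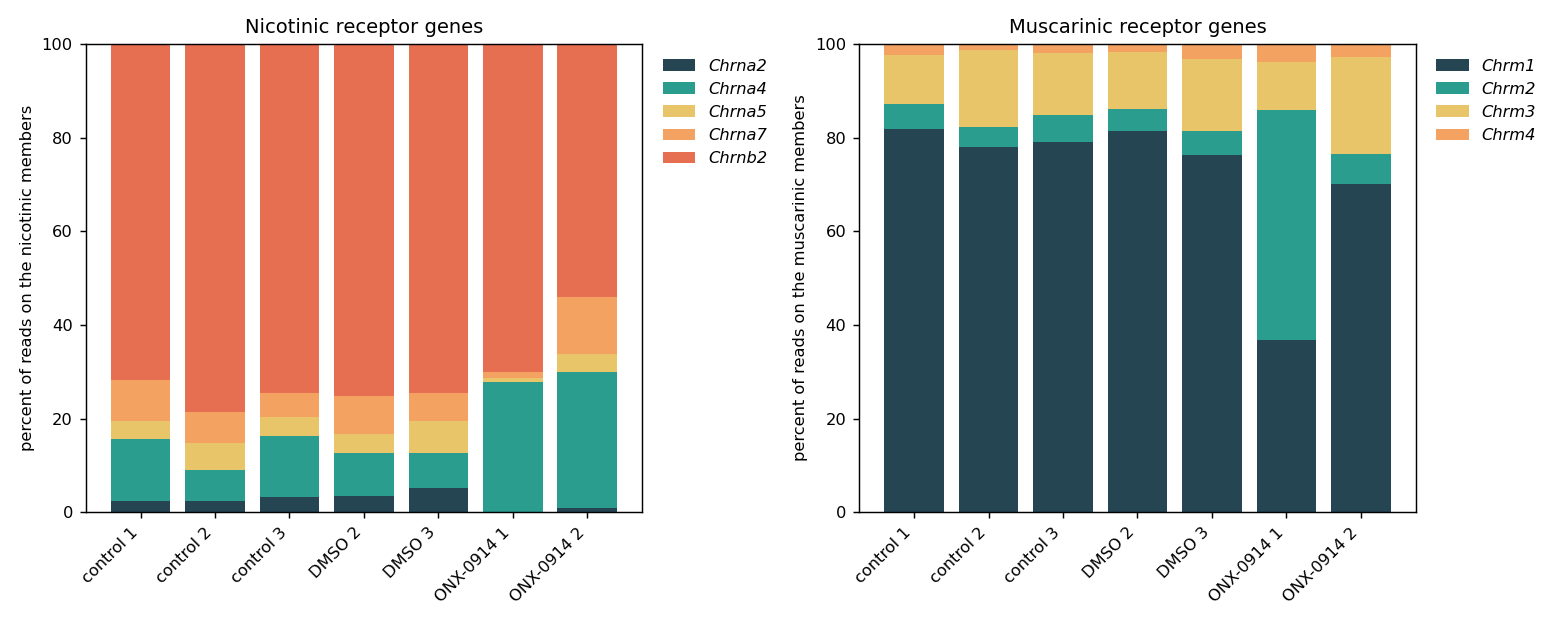
Percent of the reads on the nicotinic genes (left) and on the muscarinic genes (right) that fell on each gene, for the 7 libraries. Chrna4 takes 27.7% and 29.0% of the nicotinic reads in the ONX-0914 libraries, and Chrm2 takes 49.3% of the muscarinic reads in ONX-0914 replicate 1 alone.

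None of the 10 genes was a DEG in any of the 3 comparisons at an FDR under 0.05. All 10 passed the filter on low counts, as did 13152 genes in all. Over these, the edgeR quasi-likelihood test called 0.114% (15) between ONX-0914-treated and control mice, 0.0456% (6) between ONX-0914- and DMSO-treated mice and 0.0152% (2) between DMSO-treated and control mice, so a count of 0 among 10 genes is near the background. Unadjusted p-values under 0.05 were obtained for 4 of the 10 genes (Chrna2, Chrna4, Chrna5 and Chrm2) against control, for 3 (Chrna2, Chrna4 and Chrm2) against DMSO and for 0 between DMSO and control. Over all genes these numbers were 2447, 1937 and 349. The median Log2FC of the 10 genes was −0.01, 0.25 and −0.25 in the order ONX-0914 against control, ONX-0914 against DMSO and DMSO against control, beside 0.05, 0.05 and −0.00 over all genes tested. Both comparisons of ONX-0914 share its libraries, and those with control share the control libraries. Other settings changed the calls. DESeq2 called Chrna4 against control (FDR = 0.0432) and called Chrna4 (FDR = 0.00414) and Chrm2 (FDR = 0.0416) against DMSO, where it called 2.95% and 1.86% of all genes. Without a filter on low counts, edgeR called Chrna2, Chrna4 and Chrm2 in both comparisons, with 2.15% and 1.11% of all genes called. With limma voom, 0 of the 10 genes were called.

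**Figure D4:**
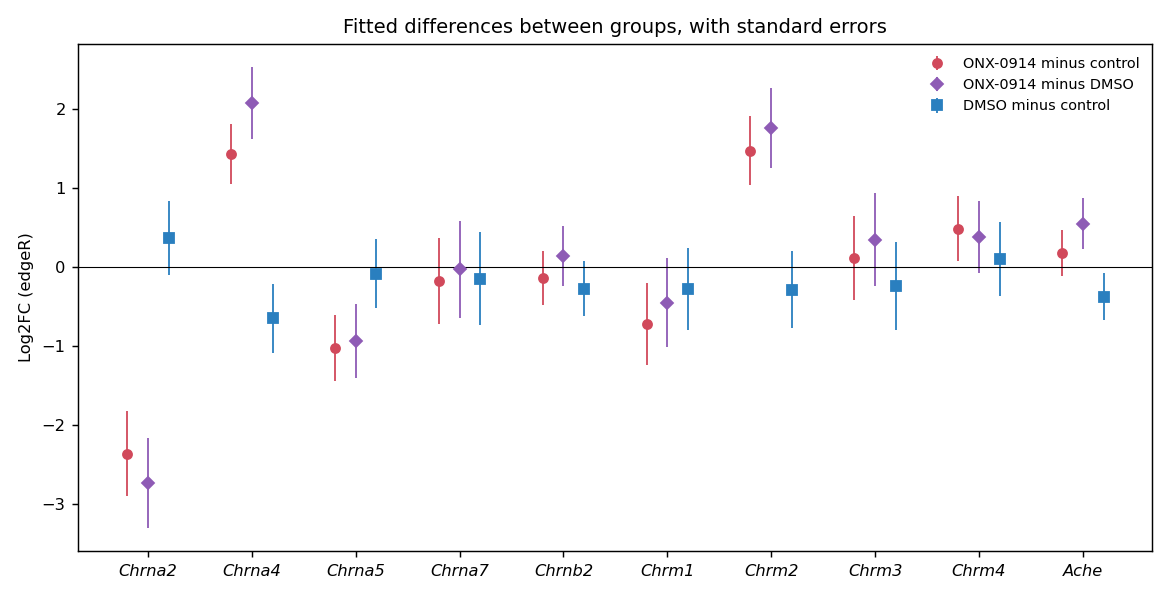
Log2FC of each gene in the 3 comparisons, as fitted by edgeR over all 7 libraries. Bars are standard errors. Chrna2 has the lowest values (−2.36 against control and −2.73 against DMSO), Chrm2 (1.47) and Chrna4 (1.43) have the highest against control and Chrna4 (2.08) has the highest against DMSO, and none passed an FDR of 0.05.

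Between DMSO-treated and control mice, 8 of the 10 genes had a negative and 2 a positive Log2FC, beside 6641 and 6511 of all 13152 genes tested. The 10 values come from the same libraries and are not independent. They went from −0.65 for Chrna4 to 0.37 for Chrna2, with an FDR of 0.9999 for each (edgeR). These p-values depend on the spread that the ONX-0914 libraries add to the fit. Without ONX-0914 replicate 1 or replicate 2, and with the control and DMSO libraries alone, 3 of the 10 genes had an unadjusted p under 0.05 in place of 0, beside 1968, 1975 and 1897 of all genes in place of 349. In the fits without replicate 1 and without replicate 2 these were Chrnb2 (FDR = 0.341 and 0.336, edgeR), Chrm1 (FDR = 0.283 and 0.280) and Ache (FDR = 0.258 and 0.2496), all lower after DMSO and none called. Chrm1 and Ache had both DMSO libraries below all control libraries, and no gene had both above. Among all genes tested, 15% had both below and 15.7% had both above.

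Measured by overlap, Chrna2 and Chrna5 had both ONX-0914 libraries below all 5 other libraries, which was found for 11.3% of all genes tested. Chrna4 and Chrm2 had both above, which was found for 11.4%. Chrna7, Chrnb2 and Chrm3 had the ONX-0914 libraries on opposite sides, which was found for 15.5%. Taken alone, ONX-0914 replicate 1 was above the 5 others for 4 of the 10 genes and below for 5, beside 27.9% and 24.9% of all genes. Replicate 2 was above for 5 and below for 3, beside 34.7% and 33.6%.

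The ONX-0914 libraries differed from each other for most of the 10 genes. On a scale of log2(CPM + 0.5), the median absolute difference between them was 1.18 over the 10 genes, 7 of which differed more than 2-fold, beside 0.562 and 24.7% over all genes tested. Within the control group the median was 0.263 to 0.414 (all genes 0.189 to 0.207), and within the DMSO group 0.337 (all genes 0.21). The lowest ratios of replicate 1 to replicate 2 were 0.193 for Chrm3 (95% interval 0.141 to 0.258), 0.202 for Chrna7 (0.0906 to 0.392) and 0.206 for Chrm1 (0.176 to 0.240). The highest were 3.10 for Chrm2 (2.60 to 3.70), 2.51 for Chrnb2 (2.24 to 2.81) and 2.04 for Ache (1.79 to 2.31).

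Therefore, the comparison with control was repeated without each ONX-0914 library. In such a fit the lone ONX-0914 library is assumed to vary like the other groups, and many genes are called. With ONX-0914 replicate 2 alone, 51.2% of all genes were called against control and 46% against DMSO, and with replicate 1 alone 19% and 17%. Among the 10 genes, 6 were called against control with replicate 2 alone and 8 with replicate 1 alone, and against DMSO these numbers were 5 and 8. Chrna2 kept its direction and was called against control in both fits, with a Log2FC of −2.10 (FDR = 0.00246, edgeR) for replicate 2 and −3.61 (FDR = 0.0163, edgeR) for replicate 1. Chrna4 did so too, with 0.94 (FDR = 0.00252, edgeR) and 1.83 (FDR = 8.92e-06, edgeR). Chrm2 had 0.47 (FDR = 0.0649, edgeR) for replicate 2 and 2.11 (FDR = 5.90e-08, edgeR) for replicate 1, and Chrna5 had −0.71 (FDR = 0.0808, edgeR) and −1.95 (FDR = 0.0242, edgeR). Chrm3 and Ache were called in both fits in opposite directions. Chrm3 had 0.80 (FDR = 0.000307, edgeR) for replicate 2 and −1.56 (FDR = 8.05e-05, edgeR) for replicate 1, and Ache had −0.42 (FDR = 0.0269, edgeR) and 0.61 (FDR = 0.00679, edgeR). For Chrm1 the values were −0.01 (FDR = 0.952, edgeR) and −2.28 (FDR = 1.13e-09, edgeR), so its lower mean rests on replicate 1. Likewise, Chrna7 had 0.40 for replicate 2 and −1.88 for replicate 1. In contrast, Chrnb2 had −0.95 for replicate 2 and 0.39 for replicate 1, so its slightly lower mean rests on replicate 2. Chrm4 had 0.80 and −0.10 in the same order, so its higher mean rests on replicate 2 too.

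Markers of other brain regions were high in the library in which Chrna4, Chrnb2, Chrm2 and Ache were highest. In ONX-0914 replicate 1, all 9 listed thalamus and midbrain genes were above the 5 libraries without ONX-0914 and summed to 1034 CPM, beside 91.6 to 106 CPM in control, 83.2 and 111 CPM after DMSO and 95.4 CPM in ONX-0914 replicate 2. Their first genes, Tcf7l2 and Prkcd, reached 107 and 315 CPM there and 3.77 to 11.5 and 25.1 to 40.1 CPM in the other 6 libraries. All 9 striatal genes were also above the 5 libraries and summed to 1388 CPM, beside 238 to 270 CPM in control, 235 and 262 CPM after DMSO and 206 CPM in replicate 2. Drd1 had 19.6 CPM in replicate 1 and 2.14 to 10.8 CPM elsewhere, and Drd2 had 53.6 and 1.92 to 4.56 CPM. The part of these tissues in the values of Chrna4, Chrnb2, Chrm2 and Ache in replicate 1 was not tested. In replicate 2, 2 of the 9 thalamus and midbrain genes were above and 3 below the 5 libraries without ONX-0914, and of the 9 striatal genes 4 were above and 2 below. Their part in the level of Chrna4 in replicate 2 was not tested either.

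Markers of hippocampal neurons were lower in ONX-0914 replicate 1 together with Chrm1, Chrm3, Chrna7, Chrna2 and Chrna5. All 5 CA1, all 5 CA3 and all 5 dentate granule cell genes were below the 5 libraries without ONX-0914. Their sums were 189.5, 111 and 68.0 CPM, beside 515 to 582, 246 to 259 and 268 to 337 CPM in control, 535 to 613, 265 to 275 and 237 to 311 CPM in DMSO, and 618, 228 and 253 CPM in ONX-0914 replicate 2. In replicate 2 the genes of each list went both ways, with 2 of 5 below the 5 libraries in each list and 3 CA1, 1 CA3 and 1 dentate gene above. Wfs1 had 190.5 CPM there and 98.0 to 138 CPM in the 5 libraries, and Fibcd1 had 68.7 CPM there and 122 to 154 CPM. The first genes of these lists, Wfs1 and Fibcd1, Bok and Iyd, and Prox1 and C1ql2, were detected in all 7 libraries. Their part in the values of Chrm1, Chrm3, Chrna7, Chrna2 and Chrna5 was not tested. In each ONX-0914 library, 4 of 5 blood genes were above the 5 libraries without ONX-0914, and the list summed to 96.4 CPM in replicate 1 and 837 CPM in replicate 2, beside 30.0 to 40.1 CPM in control and 34.6 and 46.4 CPM in DMSO. Neocortical genes summed to 290 and 339 CPM in ONX-0914 replicates 1 and 2, below the 461 to 548 CPM of control and the 530 and 558 CPM of DMSO libraries, with 3 of 7 genes above and 3 below the 5 libraries in replicate 1, and 2 above and 2 below in replicate 2. Tbr1 and Rorb, the first neocortical genes, had 18.4 and 31.2 CPM in replicate 1 and 104 and 17.3 CPM in replicate 2, beside 35.2 to 55.1 and 9.98 to 13.9 CPM in control and 36.8 to 43.7 and 10.7 to 20.7 CPM in DMSO libraries. Genes of the medial habenula, which is rich in nicotinic receptors, summed to 50.8 and 79.4 CPM with ONX-0914, 46.9 to 59.9 CPM in control and 46.8 and 55.5 CPM in DMSO libraries. Gpr151 stayed at or below 1.43 CPM in all libraries, and Pou4f1 was at 0 in 5 libraries, at 0.713 CPM in control replicate 1 and at 7.05 CPM in ONX-0914 replicate 1. Choroid plexus genes summed to 39.4 to 187 CPM in control, 52.5 and 115 CPM after DMSO and 62.7 and 184 CPM in ONX-0914 libraries, with Ttr at 23.1 to 160 CPM and Kl at 1.51 to 20.2 CPM over all libraries.

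**Figure D5:**
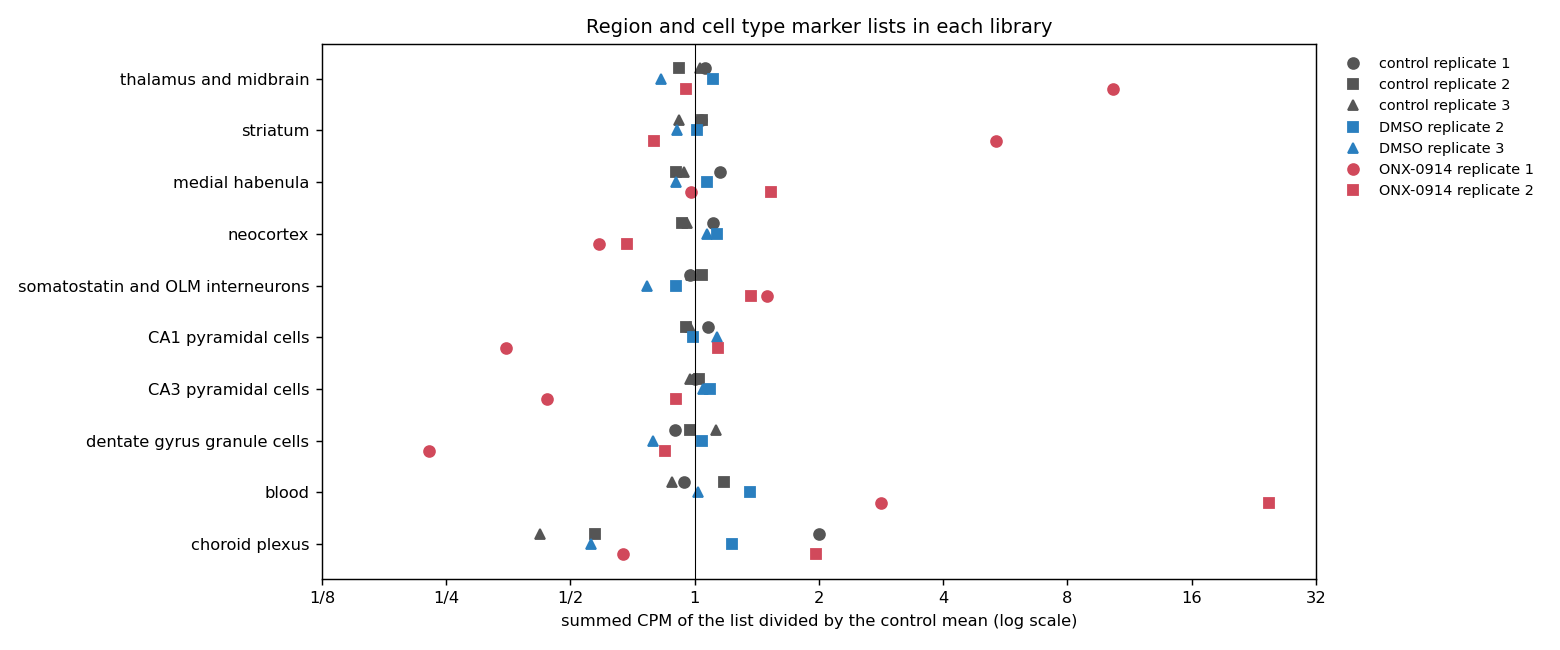
Summed CPM of 10 marker lists in each library, divided by the control mean (horizontal axis, log scale). Points are libraries, coloured by group. In ONX-0914 replicate 1 the thalamus and midbrain list is at 10.3 times and the striatal list at 5.36 times the control mean, the dentate granule cell list at 0.227 times, and in ONX-0914 replicate 2 the blood list is at 24.6 times.

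The other genes of the cholinergic pathway were read from the same fit. Of 39 such genes in 8 groups, 23 passed the filter, and 0 were called in any comparison (edgeR, with 3, 3 and 0 at an unadjusted p under 0.05 for ONX-0914 against control, ONX-0914 against DMSO and DMSO against control, beside 2447, 1937 and 349 of all 13152 genes). Of the 23 genes, both ONX-0914 libraries were below all others for 3 (Gnai1, Gnai3 and Kcnq5) and above for 2 (Lypd6 and Plcb4), and they lay on opposite sides for 6, beside 11.3%, 11.4% and 15.5% of all genes tested. Their median Log2FC was −0.08, −0.10 and 0.01 in these comparisons. For both ONX-0914 comparisons, the count of 0 did not hold when either ONX-0914 library was left out. Such a fit rests on the other library.

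The remaining ligand-gated subunits were scarce. Neither Chrm5, the M5 receptor gene, nor any of the other 11 nicotinic subunit genes passed the filter. Chrna9, Chrnd, Chrne and Chrng had at most 3 counts in every library. Chrna3, an α subunit of autonomic ganglia and habenula, had the most reads of this group when summed over the 7 libraries, but not in each of them, at 1.93 to 2.45 CPM in control, 2.14 and 2.15 CPM after DMSO and 2.01 and 0.727 CPM in ONX-0914 replicates 1 and 2. Chrna6 and Chrnb3, which together mark receptors of midbrain dopamine neurons, had both ONX-0914 libraries above all others on few reads. This was found for 11.4% of all genes tested, which do not include Chrna6 and Chrnb3. Chrna6 had 0, 0 and 1 counts in control, 2 and 0 in DMSO, and 18 and 9 in ONX-0914 replicates 1 and 2. The latter were 4.53 and 0.595 CPM, so replicate 2 was only just above DMSO replicate 2 (0.537 CPM). Chrnb3 had 0, 0 and 2, then 2 and 1, then 19 and 12 counts. With ONX-0914 these were 4.78 and 0.793 CPM, beside 0.551 CPM in control replicate 3 and 0.537 CPM in DMSO replicate 2. Chrna6 and Chrnb3 were highest in the library with high thalamus and midbrain markers (1034 CPM in sum), whose part in these values was not tested. Chrm5 had 0 to 7 counts in control and DMSO and 2 and 15 in ONX-0914 libraries. Scaled to depth, the latter were 0.503 and 0.991 CPM, within the 0 to 2.50 CPM of the control libraries.

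Genes of acetylcholine synthesis and storage, which are known from the cell bodies of cholinergic neurons, had few reads. The vesicular transporter gene Slc18a3 had at most 3 counts in every library. Chat, which makes acetylcholine, and Slc5a7, which takes up choline, are named here after their values were seen. Chat had 0, 0 and 1 counts in control, 1 and 0 in DMSO, and 8 and 1 in ONX-0914 replicates 1 and 2. Scaled to depth, the latter were 2.01 and 0.0661 CPM, beside 0.275 CPM in control replicate 3 and 0.268 CPM in DMSO replicate 2. Slc5a7 had 2, 0 and 0, then 3 and 0, then 13 and 5 counts. With ONX-0914 these were 3.27 and 0.330 CPM, so replicate 2 lay below control replicate 1 (0.713 CPM) and DMSO replicate 2 (0.805 CPM). Chat and Slc5a7 were highest in ONX-0914 replicate 1. There the striatal list was at 5.36 times the control mean, and the part of that tissue was not tested. Slc44a1, a choline transporter of many cell types, was steady at 75.5 to 92.7 CPM in control, 84.5 and 88.9 CPM after DMSO and 86.3 and 93.2 CPM in ONX-0914 libraries, with a Log2FC against control of 0.07 (FDR = 0.823, edgeR). Bche, the second cholinesterase, had 0.545 to 3.31 CPM in control, 4.02 and 2.50 CPM after DMSO and 2.01 and 3.57 CPM in ONX-0914 libraries.

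All 7 genes that assemble or modulate nicotinic receptors were tested, and 5 had a positive and 2 a negative Log2FC against control. Over all genes tested these numbers were 7075 and 6077. In ONX-0914 replicate 1, 4 of the 7 genes were above the 5 libraries without ONX-0914 and 0 below. In replicate 2, 2 were above and 5 below. The shares above and below over all genes tested were 27.9% and 24.9% for replicate 1 and 34.7% and 33.6% for replicate 2. Lynx1, whose product binds nicotinic receptors and dampens them, had the highest counts, with 779 to 813 CPM in control, 779 and 680 CPM after DMSO and 767 and 523 CPM in ONX-0914 replicates 1 and 2 (Log2FC of −0.30, FDR = 0.468, edgeR). Lypd6, a relative of Lynx1, had 15.8 to 20.3 CPM in control, 15.8 and 14.6 CPM after DMSO and 22.7 and 21.6 CPM with ONX-0914 (Log2FC of 0.28, FDR = 0.483, edgeR). It was among the genes with the ONX-0914 libraries close together (ratio of 1.05, interval 0.821 to 1.33).

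Of the 6 genes of the Gq pathway, 5 had a negative Log2FC against control, beside 6077 of all 13152 genes tested. In ONX-0914 replicate 1, 1 of the 6 was above and 4 were below the 5 libraries without ONX-0914. In replicate 2, 2 were above and 1 below. The gene with a positive Log2FC was Plcb4, a phospholipase C gene. It had 11.1, 12.8 and 14.9 CPM in control, 13.9 and 10.3 CPM after DMSO and 111.5 and 27.4 CPM in ONX-0914 replicates 1 and 2. In replicate 1 this was 8.64 times the control mean, where the thalamus and midbrain list was at 10.3 times and the striatal list at 5.36 times, and the part of these tissues was not tested. The Log2FC against control reached 2.40 ± 0.513 (standard error), with an FDR of 0.1001 in edgeR, 0.000413 in DESeq2 and 0.000553 in edgeR without a filter on low counts, which made it the only one of the 39 genes called by either of these alternatives. In addition, both ONX-0914 libraries were above all others while replicate 1 exceeded replicate 2 by a factor of 4.07 (interval 3.55 to 4.66). Gnaq, the Gq subunit with the most reads, had 228 to 282 CPM in control, 271 and 247 CPM after DMSO and 153 and 270 CPM with ONX-0914 (Log2FC of −0.24, FDR = 0.618, edgeR).

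The 4 Gi and Go subunit genes all had a negative Log2FC against control, beside 6077 of all 13152 genes tested, and 0 were called. The ONX-0914 libraries did not go the same way for each. In replicate 1, 1 of the 4 was above and 3 were below the 5 libraries without ONX-0914. In replicate 2, 0 were above and 3 below. Gnai1 had 294 to 327 CPM in control, 324 and 293 CPM after DMSO and 255 and 179 CPM in ONX-0914 replicates 1 and 2 (Log2FC of −0.51, standard error 0.197, FDR = 0.230, edgeR). Gnai3 had 46.3 to 48.2, then 52.6 and 54.6, then 45.6 and 33.4 CPM, so that replicate 1 was close to the control libraries (Log2FC of −0.26, FDR = 0.467, edgeR). Gnao1, with the most reads of this group, had 690 to 713 CPM in control, 738 and 674 CPM after DMSO and 623 and 681 CPM with ONX-0914 (Log2FC of −0.10, FDR = 0.760, edgeR).

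Kcnq5, a potassium channel gene, had 99.1, 88.6 and 95.0 CPM in control, 88.0 and 77.5 CPM after DMSO and 28.4 and 76.5 CPM in ONX-0914 replicates 1 and 2 (Log2FC of −0.82, standard error 0.354, FDR = 0.264, edgeR). Replicate 2 thus lay just under the lowest library without ONX-0914, and the lower mean comes mostly from replicate 1. There the CA1, CA3 and dentate granule cell lists were at 0.35, 0.439 and 0.227 times the control mean. Their part in the level of Kcnq5 was not tested. Of the 3 potassium channel genes listed, 1 had a positive and 2 a negative Log2FC against control, beside 7075 and 6077 of all genes tested. None was called (edgeR).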

How the data were processed

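The authors deposited raw counts of reads per gene, 1 table per library, without normalization. The submitters' processing notes name Trimmomatic 0.39, STAR 2.7.3a, featureCounts 2.00 and GRCm39; the annotation release and the strand setting are not given in the sources used here. Libraries were directional, 100 bp single-end. Summary lines (4.75% to 6.49% of reads overlapped no gene) stayed out of library sizes. Symbols and exon lengths came from GENCODE M21, which matched 52135 identifiers holding 99.8% of the counts.

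Of the genes, 13152 passed filterByExpr and entered edgeR 4.0.16 under R 4.3.3 (TMM, 1 mean per group over 7 libraries, glmQLFTest, Benjamini–Hochberg adjustment over all of them, FDR under 0.05). Log2FC used a prior count of 0.125. CPM used TMM-scaled library sizes. Intervals (95%, Wilson or exact Poisson) cover counting error only. The steps were tested on simulated counts. Alternatives were DESeq2 1.42.0, limma voom (limma 3.58.1), the earlier quasi-likelihood fit, RLE or total-count scaling, other filters, the compared groups alone, the replicate block and leaving out each library.

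The genes and lists were chosen with earlier results of these data known. Named were all 10 genes in every library and, of the other cholinergic genes, those called or with both ONX-0914 libraries outside all others, the highest count per list and those with at most 3 counts throughout. One gene that this rule names is not reported here. Electrophysiology was not analysed here.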

Additional observations from a re-analysis of the deposited data

Results flagged for a closer look

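Reads that overlapped no gene, which entered no comparison, were more frequent in the ONX-0914 libraries than in the control libraries. They made up 6.49% of the reads in ONX-0914 replicate 1 and 6.39% in replicate 2, beside 5.48% to 5.59% in control and 4.75% and 5.39% in DMSO libraries. No test was run on these shares, and their part in the values of the 10 genes was not tested. Groups of 2 or 3 libraries were not searched for a single library far from the others.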

How the results depend on the processing

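Of 471 Log2FC values of the 10 genes under the alternatives, 414 kept their direction and their side of the threshold, 32 passed the threshold in the same direction and 25 turned direction. The range of called genes when 1 library was left out was 0 to 8 of the 10 genes for ONX-0914 against control and against DMSO and 0 for DMSO against control. For the other cholinergic genes it was 0 to 12, 0 to 11 and 0, and for all genes 0 to 7023, 0 to 6313 and 0 to 146. The median Log2FC of the 10 genes then ranged from −0.83 to 0.20, from −0.76 to 0.39 and from −0.38 to −0.20. With DESeq2, 1 and 2 of the 10 genes were called for ONX-0914 against control and against DMSO, 1 and 1 of the other cholinergic genes, and 388 and 245 of all genes (9 for DMSO against control). Without a filter on low counts these numbers were 3 and 3, 1 and 1, and 578 and 297 (11). Calls over all genes were 3, 0 and 141 with the compared groups alone (ONX-0914 against control, ONX-0914 against DMSO, DMSO against control). For DMSO against control they were 0 with limma voom and with at least 10 counts in every library. For ONX-0914 against DMSO they were 10 with that filter, 11 with RLE and 3 with total counts. That filter left 7 of the 10 genes, without Chrna2, Chrna5 and Chrna7. Total counts moved the median of all genes by 0.14 in both ONX-0914 comparisons, and 8 of 14 calls against control were then higher and 6 lower, in place of 5 and 10.

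The replicate number as a block gave 0 calls among the 10 genes and 1, 0 and 0 over all genes. Deviations of libraries with the same number correlated at −0.099 to 0.065, and the labels give the numbers no shared animal or day. Under the block, Chrm3 had −0.12 against control, Chrm2 0.018 for DMSO against control and Chrnb2 −0.14 against DMSO. Other turns of direction were Chrm3 against control with limma voom (−0.17) and Chrna7 against DMSO with total counts (0.13) and without a filter (0.034). Leaving out 1 library at a time turned the Log2FC against control of Chrna7 (range −1.88 to 0.40), Chrnb2 (−0.95 to 0.39), Chrm3 (−1.56 to 0.80), Chrm4 (−0.10 to 0.80) and Ache (−0.42 to 0.61). It turned those against DMSO of Chrna7 (−1.77 to 0.52), Chrnb2 (−0.67 to 0.66), Chrm1 (−2.02 to 0.26), Chrm3 (−1.32 to 1.05), Chrm4 (−0.21 to 0.70) and Ache (−0.062 to 0.97), and those of DMSO against control of Chrna5 (−0.29 to 0.12), Chrna7 (−0.57 to 0.14) and Chrm4 (−0.19 to 0.39). Where a fit lost an ONX-0914 library, it rests on the other one. The cause of the other changes was not tested. Depth limits Chrna2 most, with 1 count in ONX-0914 replicate 1.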
